A study of Mus musculus with 19 samples.

Results

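The 50 genes described here encode the machinery that moves new proteins into or through the membrane of the endoplasmic reticulum (ER), cuts and glycosylates them, folds them and removes those that fail to fold. They were chosen by a list of symbols from the 20436 genes of the count tables. The rule itself uses no measured value, but the list was drawn up with earlier results of these data known. All 50 were found in both tables and passed the filter on low counts in every comparison. By role they are 7 genes of the translocation channel, 4 of the translocon-associated protein (TRAP) complex, 5 of signal peptidase, 9 of the oligosaccharyltransferase (OST), 12 chaperones and oxidoreductases, 7 of ER-associated degradation (ERAD), 2 sensors of the unfolded protein response and 4 of the ER membrane protein complex (EMC).

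Hippocampal slices of wild-type male mice aged P28 to P42 were kept for 5 min in 100 µM DHPG, an agonist of group I metabotropic glutamate receptors, or in the vehicle ACSF (basal), to find which RNAs and which translation products respond within minutes. Slices of both kinds were then placed in cycloheximide (100 µg/ml), which holds ribosomes on the mRNA, and per the study's methods the slices of 6 mice were pooled for a replicate, CA3 was kept in these slices, and RNA-seq and ribosome profiling were made from the same lysate. The libraries comprised 4 basal and 5 DHPG RNA libraries and 5 basal and 5 DHPG libraries of ribosome-protected fragments (RPFs). Deposited counts summed to between 4870813 and 7793244 in the RNA libraries and between 5692064 and 22092434 in the RPF libraries, so most RPF values rest on more counts than the RNA values. Levels are given as CPM, a gene's counts scaled to the size of its library with TMM factors. A slice holds many cell types, and fewer cells of a type and less RNA per cell cannot be told apart in it.

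Proteins bound for the cell surface, for secretion or for the endomembrane system enter the ER through the Sec61 channel while they are being made, where signal peptidase removes the signal peptide and OST attaches N-glycans. The lectins calnexin and calreticulin, the Hsp70 chaperone BiP (Hspa5) and protein disulfide isomerases then fold them, and the Sel1l and Syvn1 complex returns misfolded chains to the cytosol for the proteasome. When unfolded proteins accumulate, the sensors Ern1 (IRE1) and Atf6 raise transcription of the chaperones through ER stress elements (ERSE) in their promoters. In neurons this machinery makes receptors, channels and adhesion proteins.

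The ERSE is shown because it divides the members by a sequence that no measured value enters. The motif, CCAAT followed by any 9 bases and CCACG, was searched on both strands of RefSeq promoters (GRCm38.p6, 250 bases before to 50 bases after each start), with entries for 38 of the 50 members. It was present in 7 of these members and in 37 of 27025 genes in all (0.137%). The sites are given 5′ to 3′ on the strand of the gene with 5 flanking bases on each side, and capitals mark the motif, which reads as its reverse complement, from CGTGG to ATTGG, where it lies on the opposite strand.
Hspa5 (chr2:34772020-34772048, gene on the plus strand, 65 to 47 bases before the start): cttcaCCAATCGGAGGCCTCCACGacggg
Hsp90b1, first site (chr10:86705633-86705661, gene on the minus strand, 212 to 194 bases before the start): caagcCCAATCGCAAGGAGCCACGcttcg
Hsp90b1, second site (chr10:86705528-86705556, gene on the minus strand, motif on the opposite strand, 107 to 89 bases before the start): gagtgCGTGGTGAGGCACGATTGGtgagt
Canx (chr11:50325795-50325823, gene on the minus strand, 145 to 127 bases before the start): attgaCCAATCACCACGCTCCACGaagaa
Calr (chr8:84847070-84847098, gene on the minus strand, motif on the opposite strand, 162 to 144 bases before the start): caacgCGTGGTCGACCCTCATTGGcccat
Pdia6 (chr12:17266486-17266514, gene on the plus strand, 98 to 80 bases before the start): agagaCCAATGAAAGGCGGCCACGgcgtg
Dnajc3 (chr14:118937822-118937850, gene on the plus strand, 105 to 87 bases before the start): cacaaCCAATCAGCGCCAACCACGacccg
Syvn1 (chr19:6046527-6046555, gene on the plus strand, 44 to 26 bases before the start): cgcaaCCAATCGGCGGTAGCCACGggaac

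A second form, ERSE-II (ATTGG, any 1 base and CCACG), was present in 12 genes (0.0444%), among them Dnajb11, whose site begins at base 8 counted from the start.
Dnajb11 (chr16:22857847-22857867, gene on the plus strand): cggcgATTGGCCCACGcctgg
The letters of the cAMP response element TGACGTCA (2.03% of genes) and of the unfolded protein response element TGACGTGG (0.714% of genes) were in none of the 38 windows of members. A match of letters is a description and not a site shown to be used.

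Most members had more footprints per length than most genes, a density that depends on the amount of RNA as well as on its translation. Levels between genes were compared per length, as RPF CPM per kb of coding sequence without the 30 nt at each end and RNA CPM per kb of transcript, both in basal libraries (mean ± SD, n = 5 for RPF and n = 4 for RNA). The median member had 133 RPF CPM per kb, and the median member stood at the 88.7th percentile of the genes tested. Calr, the soluble lectin chaperone, was the highest at 859.7 ± 197, followed by Hspa5 at 698 ± 282 and Canx, the membrane lectin, at 606 ± 125. The SDs of these 3 overlap, but Calr exceeded Canx per length in 10 of 10 RPF libraries and 9 of 9 RNA libraries. The place of Hspa5 varied between basal RPF libraries. It was above Calr in replicate 2 (1147 against 1143) and below Canx in replicate 5 (461 against 532). In basal replicates 1, 3 and 4 Hspa5 lay between Canx and Calr. Ern1, the stress sensor IRE1, was the lowest at 1.35 ± 0.223, with 17 to 97 counts per RPF library.

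**Figure D1:**
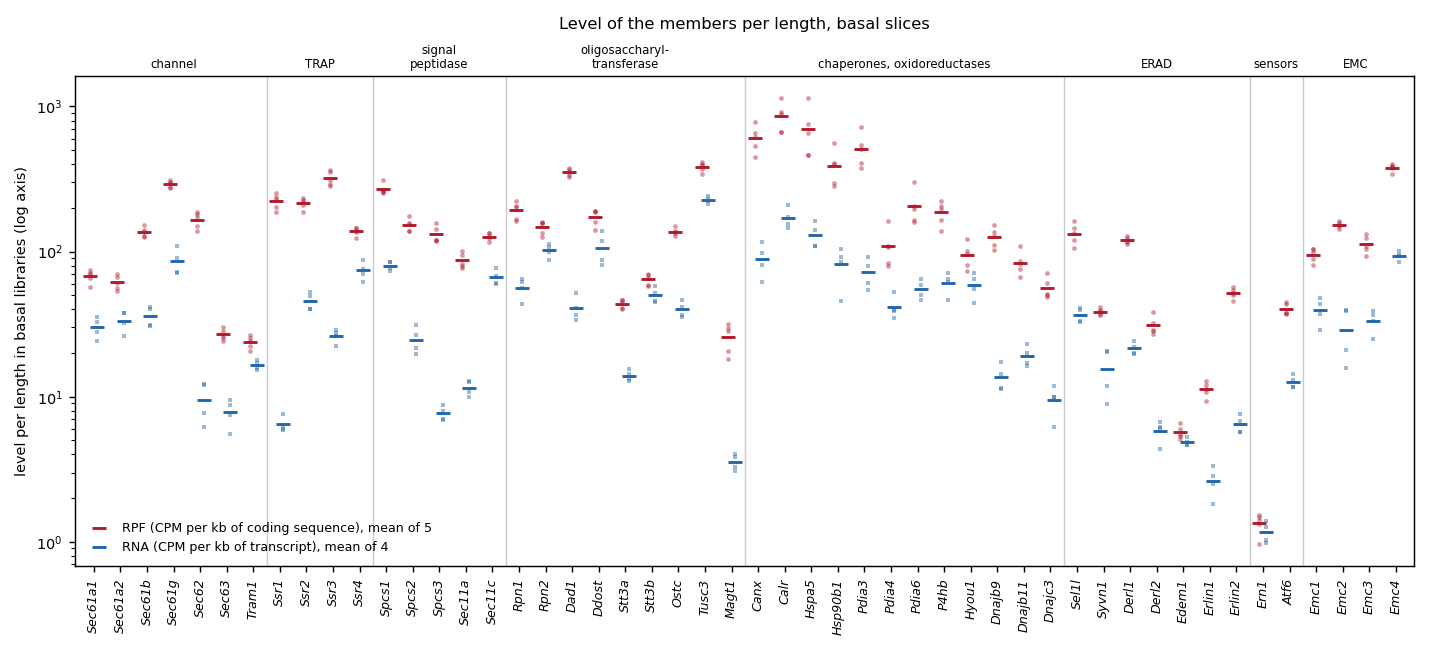
Level of each member per length in basal slices, on a log axis, by role. Red circles are RPF CPM per kb of coding sequence in 5 libraries, blue squares are RNA CPM per kb of transcript in 4 libraries, and bars are means. The lectins, Hspa5 and Pdia3 lie above 500 RPF CPM per kb, while Ern1 lies near 1.

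Subunits of one complex differed in footprint density. In the channel, the small subunit Sec61g had 293 ± 16.5 RPF CPM per kb and Sec61b, the other small subunit, had 137 ± 10.5, against 67.8 ± 6.59 for the pore subunit Sec61a1 and 61.5 ± 6.84 for its paralog Sec61a2. Lengths are those of 1 isoform per gene, and the SDs do not cover that choice. For Sec61g, with 2 coding isoforms, the coding sequence used was 300 nt and the median isoform has 252 nt. Tram1, which contacts entering chains, was the lowest of the channel group at 23.8 ± 2.38, next to the Hsp40-like partner Sec63 at 26.9 ± 2.34. Their SDs overlap, but Sec63 was the higher in every basal RPF library. In DHPG replicate 4 Tram1 was at 21.3 and Sec63 at 21.2. Sec62, which works with Sec63, stood at 166 ± 21.3.
Sec61a1 RPFs were 95.9, 102, 97.5, 78.5 and 90.2 CPM in basal replicates 1 to 5 and 92.4, 103, 96.9, 86.3 and 87.6 CPM with DHPG. Sec61a2 RPFs were 83.6, 95.4, 91.4, 73.5 and 76.6 CPM in basal replicates 1 to 5 and 85.2, 99.8, 94.6, 74.0 and 76.8 CPM with DHPG. The first paralog was the higher per length in 10 of 10 RPF libraries, by 1.02 to 1.18 times, and the second was the higher in 9 of 9 RNA libraries.
Sec61a1 RNA was 89.2, 104, 112 and 77.1 CPM in basal replicates 1 to 4 and 101, 109, 103, 80.1 and 88.2 CPM in DHPG replicates 1 to 5. Sec61a2 RNA was 78.3, 91.8, 92.0 and 64.1 CPM in basal replicates 1 to 4 and 83.5, 86.0, 80.1, 64.0 and 71.4 CPM in DHPG replicates 1 to 5. Both RNAs were lowest in replicate 4 in each treatment, and the values with DHPG lay among the basal ones or next to them. The proteins of these paralogs are closely related, and how the counting divided reads between them cannot be checked from the tables.
Tram1 RPFs were 23.6, 26.8, 28.4, 25.5 and 22.1 CPM in basal replicates 1 to 5 and 26.2, 28.3, 31.3, 22.6 and 24.5 CPM with DHPG. Tram1 RNA was 50.1, 46.3, 52.9 and 45.1 CPM in basal replicates 1 to 4 and 47.3, 55.2, 51.1, 47.6 and 53.1 CPM in DHPG replicates 1 to 5. For Tram1 the CPM of the RPFs lay below that of the RNA in every replicate.

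In TRAP, which binds the channel and helps some signal peptides to open it, Ssr3 was the highest at 320.5 ± 36.6 RPF CPM per kb, Ssr1 and Ssr2 followed at 222 ± 26.7 and 216 ± 17.8, and Ssr4 was the lowest at 138 ± 8.48. Ssr4 RPFs were 66.9, 62.3, 66.2, 57.2 and 64.1 CPM in basal replicates 1 to 5 and 63.9, 68.3, 67.1, 59.6 and 66.6 CPM with DHPG. Ssr4 RNA was 56.5, 60.7, 70.4 and 49.6 CPM in basal replicates 1 to 4 and 53.2, 64.2, 68.0, 48.0 and 53.6 CPM in DHPG replicates 1 to 5. Ssr4 RNA was highest in replicate 3 and lowest in replicate 4 of both treatments, and its RPFs were also lowest in replicate 4.

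Signal peptidase was led by the small subunit Spcs1 at 270.1 ± 23.2, with Spcs2 at 153 ± 15.8 and Spcs3 at 132 ± 17.7. Its catalytic subunits are the alternatives Sec11c, at 127 ± 7.02, and Sec11a, at 86.9 ± 10.1. Sec11c RPFs were 69.2, 68.8, 65.6, 60.5 and 63.6 CPM in basal replicates 1 to 5 and 68.0, 74.0, 70.9, 64.1 and 70.2 CPM with DHPG. Sec11c RNA was 58.7, 51.9, 51.5 and 66.3 CPM in basal replicates 1 to 4 and 59.9, 67.7, 45.5, 53.5 and 57.9 CPM in DHPG replicates 1 to 5. Sec11a RNA was 17.0, 17.3, 13.4 and 14.5 CPM in basal replicates 1 to 4 and 15.3, 20.0, 12.6, 12.9 and 11.8 CPM in DHPG replicates 1 to 5. Per length, Sec11c exceeded Sec11a by 4.69 to 7.71 times in the RNA libraries but by 1.33 to 1.81 times in the RPF libraries.

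Subunits of the OST ranged widely. Tusc3, an oxidoreductase subunit of the post-translational OST, had 384 ± 28.4 RPF CPM per kb, and its paralog Magt1 had 25.7 ± 5.84. Tusc3 RPFs were 385, 406, 394, 335 and 365 CPM in basal replicates 1 to 5 and 422, 419, 389.7, 334 and 367 CPM with DHPG. Tusc3 RNA was 364, 336, 348 and 321 CPM in basal replicates 1 to 4 and 352, 343, 327, 281 and 368 CPM in DHPG replicates 1 to 5. Tusc3 was the most abundant member RNA per length, at 227 ± 12.1 CPM per kb.
Magt1 RPFs were 32.9, 29.5, 30.9, 19.1 and 21.5 CPM in basal replicates 1 to 5 and 29.0, 30.8, 31.0, 18.6 and 23.7 CPM with DHPG. Magt1 RNA was 15.8, 16.7, 13.4 and 12.7 CPM in basal replicates 1 to 4 and 13.1, 17.7, 10.9, 12.9 and 13.9 CPM in DHPG replicates 1 to 5. Per length, Tusc3 exceeded Magt1 by 52.7 to 81.7 times in RNA and by 12.5 to 19.2 times in RPFs, in every library of each assay. The ranges of the assays did not overlap. The transcript lengths used were 1511 nt for Tusc3 and 4115 nt for Magt1, so the RNA fold in CPM was smaller. The RPFs of Magt1 were lowest in replicates 4 and 5 of both treatments.
The catalytic subunits were lower, Stt3b, of the post-translational complex, at 64.5 ± 5.38 and Stt3a, of the co-translational complex, at 43.8 ± 2.94. Stt3b RPFs were 166, 168, 159.5, 143 and 141 CPM in basal replicates 1 to 5 and 166, 183, 159.8, 151 and 142 CPM with DHPG. Stt3a RPFs were 92.9, 94.9, 95.3, 83.1 and 83.9 CPM in basal replicates 1 to 5 and 90.2, 104, 93.7, 82.9 and 79.8 CPM with DHPG. Stt3b was the higher per length in 10 of 10 RPF libraries, by 1.43 to 1.57 times.
Stt3b RNA was 220.3, 246, 193 and 190.4 CPM in basal replicates 1 to 4 and 232, 235, 191, 189.7 and 197 CPM in DHPG replicates 1 to 5. Stt3a RNA was 90.7, 83.5, 77.8 and 75.1 CPM in basal replicates 1 to 4 and 90.7, 99.6, 57.2, 66.2 and 80.9 CPM in DHPG replicates 1 to 5. In RNA the lead of Stt3b was 3.28 to 4.64 times per length. The other subunits lay between Stt3b and Tusc3, with Ostc at 137 ± 7.88, Rpn2 at 147 ± 15.9, Ddost at 174 ± 22.8, Rpn1 at 192 ± 26.1 and Dad1 at 352 ± 19.1 RPF CPM per kb.

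The median of the ERAD genes was 38.6 RPF CPM per kb, and that of the chaperones was 196. Sel1l, the scaffold of the Hrd1 complex, led them at 133 ± 21.6, its partner ubiquitin ligase Syvn1 had 38.6 ± 1.93, and Edem1, a mannosidase-like factor that marks misfolded glycoproteins, had 5.71 ± 0.616. Sel1l RPFs were 308, 374, 334, 244 and 278 CPM in basal replicates 1 to 5 and 323, 395, 319, 253 and 278 CPM with DHPG. Sel1l RNA was 249, 257, 211 and 205 CPM in basal replicates 1 to 4 and 244, 243, 222, 201 and 212 CPM in DHPG replicates 1 to 5. Sel1l RPFs were highest in replicate 2 and lowest in replicate 4 of both treatments.
Derl1 exceeded its paralog Derl2, both membrane proteins of the retrotranslocation path, by 3.33 to 5.11 times per length in RPFs and by 3.06 to 5.37 times in RNA, so the ranges of the assays overlapped. Derl1 RPFs were 80.8, 89.4, 86.7, 82.1 and 78.1 CPM in basal replicates 1 to 5 and 78.1, 93.3, 92.0, 86.8 and 80.5 CPM with DHPG. Derl2 RPFs were 19.1, 25.1, 21.2, 17.8 and 18.5 CPM in basal replicates 1 to 5 and 20.5, 26.6, 25.5, 16.1 and 19.7 CPM with DHPG. Derl1 RPFs stayed between 78.1 and 93.3 CPM, and Derl2 RPFs were highest in replicate 2 of both treatments.
Derl1 RNA was 62.8, 69.8, 77.1 and 63.9 CPM in basal replicates 1 to 4 and 62.8, 80.7, 75.3, 56.1 and 72.0 CPM in DHPG replicates 1 to 5. Derl2 RNA was 16.0, 22.2, 24.7 and 22.6 CPM in basal replicates 1 to 4 and 20.2, 30.5, 16.2, 18.2 and 20.0 CPM in DHPG replicates 1 to 5. Derl2 RNA had 95 to 160 counts per library, and its DHPG value in replicate 2 was above all others.
Erlin2 exceeded Erlin1, its partner in the degradation of IP3 receptors, by 3.91 to 5.82 times per length in RPFs and 2.18 to 3.13 times in RNA. Erlin2 RPFs were 47.9, 52.5, 54.4, 43.6 and 49.6 CPM in basal replicates 1 to 5 and 53.6, 61.8, 58.1, 42.8 and 43.8 CPM with DHPG. Erlin1 RPFs were 12.6, 11.2, 11.8, 9.22 and 10.6 CPM in basal replicates 1 to 5 and 9.43, 12.3, 14.0, 10.1 and 9.54 CPM with DHPG. After Ern1 and Edem1, Erlin1 had the fewest RPFs per length of the members.
Erlin2 RNA was 36.5, 27.8, 27.4 and 33.1 CPM in basal replicates 1 to 4 and 34.8, 29.0, 27.8, 34.5 and 31.4 CPM in DHPG replicates 1 to 5. Erlin1 RNA was 10.8, 8.02, 5.86 and 9.16 CPM in basal replicates 1 to 4 and 8.76, 8.03, 8.52, 8.84 and 8.73 CPM in DHPG replicates 1 to 5. Erlin1 RNA rests on 38 to 68 counts per library.

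Of the sensors, Atf6 stood at 40.2 ± 3.81 RPF CPM per kb against 1.35 ± 0.223 for Ern1. Atf6 RPFs were 71.8, 82.7, 86.2, 70.5 and 72.0 CPM in basal replicates 1 to 5 and 75.4, 91.2, 86.9, 68.2 and 68.8 CPM with DHPG. Ern1 RPFs were 2.79, 4.26, 4.40, 4.08 and 3.82 CPM in basal replicates 1 to 5 and 3.02, 5.03, 4.25, 4.33 and 3.43 CPM with DHPG. The basal and DHPG values of both sensors overlapped, and RPFs of Ern1 were lowest in replicate 1 of both treatments.
Atf6 RNA was 94.5, 84.0, 84.2 and 103 CPM in basal replicates 1 to 4 and 97.2, 91.0, 89.8, 97.9 and 97.0 CPM in DHPG replicates 1 to 5. Ern1 RNA was 7.18, 8.85, 9.71 and 6.77 CPM in basal replicates 1 to 4 and 7.47, 8.03, 9.88, 8.42 and 8.23 CPM in DHPG replicates 1 to 5. RNA of Ern1 was above its RPFs in CPM in every replicate. The EMC, which inserts membrane proteins that Sec61 does not, was led by the small subunit Emc4 at 379.6 ± 21.3, with Emc2 at 153 ± 6.73, Emc3 at 112 ± 15.5 and the large Emc1 at 95.5 ± 10.4.

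Most members had more RPFs for their RNA than the typical gene. The basal ratio of RPF to RNA was tested in edgeR over replicates 1 to 4, where both assays exist. It is given as log2 of the RPF over the RNA share (estimate ± SE), and 0 is the typical gene, since the median of all genes was 0.0029. Of all genes, 70.3% passed an adjusted p of 0.05, 35% above and 35.2% below, so passing is common. Of the 50 members 41 passed, 38 above the typical gene and 3 below. The median member was at 0.71, and 45 of 50 lay above 0 against 50.1% of all genes.

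**Figure D2:**
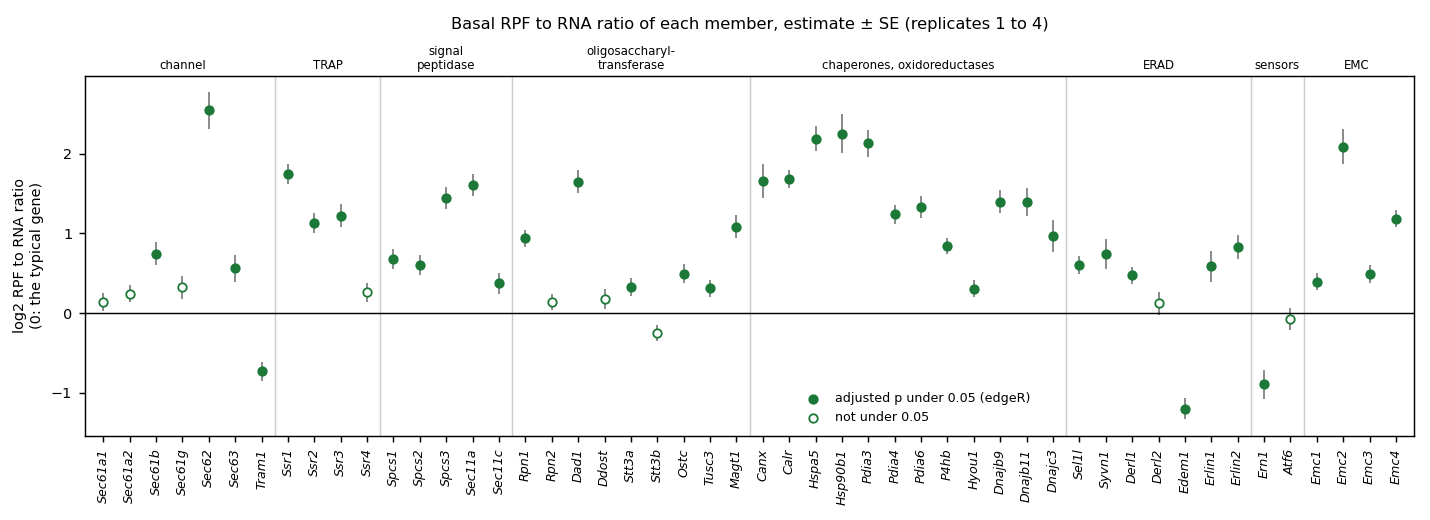
Basal log2 ratio of RPF to RNA for each member by role, as the edgeR estimate ± SE over replicates 1 to 4. Filled points passed an adjusted p of 0.05, and 0 marks the typical gene. All 12 chaperones lie above 0, Sec62 is the highest at 2.55 and Edem1 the lowest at -1.20.

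The chaperones and oxidoreductases had a median of 1.40, and 12 of 12 passed above 0. Hsp90b1, the ER Hsp90 (GRP94), was at 2.25 ± 0.24 (adjusted p = 5.54e-05, edgeR), Hspa5 at 2.19 ± 0.16 (adjusted p = 8.59e-06, edgeR) and Pdia3, the disulfide isomerase that works with the lectins, at 2.13 ± 0.17. Calr was at 1.68 ± 0.11 and Canx at 1.66 ± 0.22. The lowest of the group was Hyou1, the nucleotide exchange factor of BiP, at 0.31 ± 0.10 (adjusted p = 0.0238, edgeR). Its estimate was 0.31 without the replicate block too, but the call was lost there, with an adjusted p of 0.123 in edgeR, and likewise without replicate 1 (0.0882) or 2 (0.145).
TRAP had a median of 1.18, from Ssr4 at 0.26 ± 0.12, which did not pass, to Ssr1 at 1.75 ± 0.13. Signal peptidase had a median of 0.68 with 5 of 5 passing, and Sec11a at 1.61 ± 0.14 stood above Sec11c at 0.38 ± 0.13. The EMC had 4 of 4 passing, with Emc2 at 2.09 ± 0.22, Emc4 at 1.18 ± 0.11, Emc3 at 0.49 ± 0.11 and Emc1 at 0.39 ± 0.11. In the OST 6 of 9 passed, with Dad1 at 1.65 ± 0.14, Magt1 at 1.09 ± 0.15 and Tusc3 at 0.31 ± 0.10. Stt3a was at 0.33 ± 0.11 and passed, but with each library's trend with GC content removed it passed on the other side, at -0.39, as did Derl2, at -0.45. Here the trend was taken over RNA and RPF libraries together, so its removal also takes out any part of the ratio that goes with GC content. The study reports that translation efficiency in these slices is correlated with GC content. Some calls were lost when a replicate was left out. In edgeR, the adjusted p of Sec11c was 0.0836, 0.163 and 0.0724 without replicate 1, 2 or 3, and that of Tusc3 was 0.0583, 0.184 and 0.0566. Those of Emc1 were 0.0525 and 0.0542 without replicate 1 or 2. Without replicate 2 or 3, those of Stt3a were 0.136 and 0.0861 and those of Erlin1 were 0.0668 and 0.0923.

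Sec62 had the highest ratio of the members. Sec62 RPFs were 198, 211, 207, 156 and 169.7 CPM in basal replicates 1 to 5 and 195, 205, 213, 160.1 and 165 CPM with DHPG. Sec62 RNA was 48.6, 30.7, 24.7 and 47.6 CPM in basal replicates 1 to 4 and 42.0, 31.1, 25.7, 55.4 and 55.7 CPM in DHPG replicates 1 to 5. Its ratio was 2.55 ± 0.23 (adjusted p = 2.36e-05, edgeR), and per replicate it lay 2.19, 2.95, 3.22 and 1.87 above the median gene in replicates 1 to 4. Its RNA was lower in replicates 2 and 3 than in the others in both treatments, while its RPFs were highest in these replicates.
At the other end, Edem1 was at -1.20 ± 0.13 (adjusted p = 7.02e-05, edgeR), Ern1 at -0.90 ± 0.18 and Tram1 at -0.73 ± 0.12. Edem1 RPFs were 12.6, 10.3, 11.4, 9.68 and 10.1 CPM in basal replicates 1 to 5 and 12.5, 10.8, 11.1, 9.98 and 9.71 CPM with DHPG. Edem1 RNA was 28.2, 30.7, 27.1 and 26.9 CPM in basal replicates 1 to 4 and 31.3, 29.2, 35.3, 31.6 and 32.9 CPM in DHPG replicates 1 to 5. Edem1 had more than 2 times the CPM in RNA as in RPFs in every replicate.
The 9 members that did not pass were Sec61a1, Sec61a2, Sec61g, Ssr4, Rpn2, Ddost, Stt3b, Derl2 and Atf6, at -0.25 to 0.32.

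RPFs were counted on coding sequence and RNA on whole transcripts, so a long untranslated part lowers the ratio of counts. With both divided by the length they were counted on, 42 of 50 members lay above the median gene and the median member was at 1.03, as a description with no test. By role, the median per length was 2.09 for TRAP, 1.82 for signal peptidase and 1.52 for the chaperones, of which 11 of 12 lay above the median gene. On this scale Ssr1 was at 4.28 and Sec62 at 3.34, while Tusc3 at -0.085 and Hyou1 at -0.12 lay below 0 and Atf6 lay above it, at 0.83. These lengths are those of 1 isoform per gene, and for Ssr1 that transcript is 9333 nt for a coding sequence of 858 nt. With the GC trend of each library removed, and with it any part of the ratio that goes with GC content, 42 of 50 lay above 0 with a median of 0.52.

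The chaperones differed more between replicates than between treatments. In RPFs, 12 of 12 chaperones and oxidoreductases had their highest mean over both treatments in replicate 2 and their lowest in replicate 4 or 5, and of all 50 members 35 were highest in replicate 2, against 23.6% of all genes tested. Replicate numbers are names of pools of mice and have no order.
Hspa5 RPFs were 1254, 2185, 1448, 886 and 878 CPM in basal replicates 1 to 5 and 1368, 2199.8, 1377, 976 and 908 CPM with DHPG. Hsp90b1 RPFs were 962, 1322, 938, 664 and 693 CPM in basal replicates 1 to 5 and 988, 1319, 929, 679.7 and 689 CPM with DHPG. Canx RPFs were 1058, 1329.6, 1128, 765 and 912 CPM in basal replicates 1 to 5 and 1143, 1352, 1159, 789 and 929 CPM with DHPG. All 3 were highest in replicate 2 in both treatments, and basal and DHPG libraries of one number lay close together.
Calr RPFs were 1095, 1358, 1057, 798 and 799 CPM in basal replicates 1 to 5 and 1147, 1389, 1036, 793 and 838 CPM with DHPG. Hyou1 RPFs were 284, 357, 298, 217 and 237 CPM in basal replicates 1 to 5 and 289, 369, 280.1, 230.2 and 251 CPM with DHPG. Dnajb9 RPFs were 77.7, 92.5, 82.5, 62.3 and 67.4 CPM in basal replicates 1 to 5 and 83.6, 90.1, 92.8, 62.7 and 62.9 CPM with DHPG. Calr and Hyou1 were also highest in replicate 2 of both treatments, and Dnajb9, a BiP cofactor (ERdj4), was highest in replicate 2 at basal and in replicate 3 with DHPG. From the lowest to the highest replicate the mean of both treatments differed by 2.45 times for Hspa5, 1.96 times for Hsp90b1, 1.73 times for Calr and 1.46 times for Dnajb9.
The median of this range was 0.79 on the log2 scale for the 12 chaperones, 0.41 for all members and 0.33 for all genes tested. The 12 chaperones held 65.0% of the members' summed RPF CPM in basal replicate 2 and 54.7% in basal replicate 4.

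**Figure D3:**
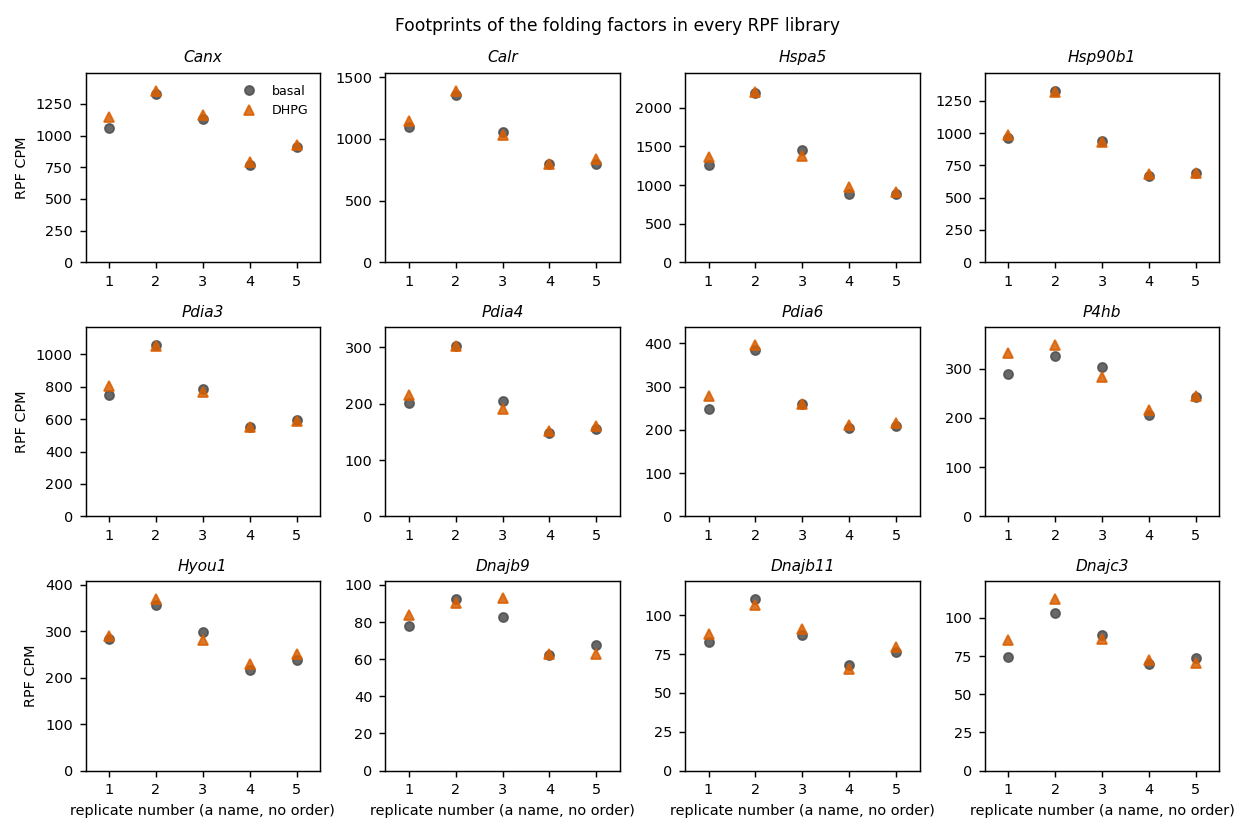
RPF CPM of the 12 chaperones and oxidoreductases in each basal (grey circles) and DHPG (orange triangles) library, by replicate number, with each axis starting at 0. Basal and DHPG libraries of one number lie together, and replicate 2 is the highest by the mean of both in all 12 genes.

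Of the 7 members with an ERSE, 6 of which are chaperones, 7 were highest in replicate 2, with a median range of 0.79 on the log2 scale. Of the 31 members with a promoter entry but no ERSE, 19 were highest there, with a median range of 0.41. All 12 chaperones were highest in replicate 2, with or without an ERSE match, and their median range was 0.79. Of those without a match, Pdia4 had the largest range, followed by Pdia3 at 0.93. Dnajb11, which has ERSE-II only, and Hyou1 were at 0.70, P4hb at 0.68 and Dnajb9 at 0.55. The comparison by ERSE is thus not separate from that by role. Among the 9 other genes with an ERSE that were tested, 2 were highest in replicate 2, a share of 22.2% against 23.4% of tested genes with a promoter and no ERSE. Syvn1 carries an ERSE and had the smallest range of the 7, 0.17. These are descriptions of 5 pools of mice, with no test.

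RNA of the chaperones followed this order in part. Hspa5 RNA was 366, 427, 287 and 284 CPM in basal replicates 1 to 4 and 365, 429, 259, 302 and 278 CPM in DHPG replicates 1 to 5. Calr RNA was 378, 457, 339.6 and 316 CPM in basal replicates 1 to 4 and 398, 423, 299, 275 and 272 CPM in DHPG replicates 1 to 5. Hyou1 RNA was 244, 315, 289 and 196 CPM in basal replicates 1 to 4 and 256, 330.3, 251, 197 and 203 CPM in DHPG replicates 1 to 5. All 3 RNAs were highest in replicate 2 in both treatments, as their RPFs were.
Hsp90b1 RNA was 295, 240.3, 129 and 259 CPM in basal replicates 1 to 4 and 268, 225, 159, 262 and 233 CPM in DHPG replicates 1 to 5. Canx RNA was 497, 349, 263 and 419 CPM in basal replicates 1 to 4 and 511, 351, 279, 409 and 418 CPM in DHPG replicates 1 to 5. Dnajb9 RNA was 42.9, 35.2, 28.4 and 27.8 CPM in basal replicates 1 to 4 and 41.5, 34.2, 35.3, 25.4 and 26.4 CPM in DHPG replicates 1 to 5. These RNAs were highest in replicate 1 by the mean of both treatments, and Hsp90b1 and Canx were lowest in replicate 3, where their RPFs were not. In RNA, 6 of 12 chaperones were highest in replicate 2, against 16.2% of all genes.

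Libraries also differed in their trend with GC content. Across all genes tested, the Spearman correlation of a gene's deviation from its group mean with the GC content of its transcript was -0.48, 0.38, 0.68 and -0.60 in basal RNA replicates 1 to 4, and 0.12, -0.42, -0.28, 0.25 and 0.34 in basal RPF replicates 1 to 5. Genes share the library, so these describe libraries. With that trend removed, RPFs of 12 of 12 chaperones and 37 of 50 members were highest in replicate 2, of which 33 members were also highest there as deposited, and the range of Hspa5 was 2.36 times. The RNA range of Sec62 was 2.03 times as deposited and 1.42 times with the trend removed, and that of Hsp90b1 was 1.96 and 1.54 times. What else differed between the pools was not tested.

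Emc2 RPFs were 134, 124, 119.8, 130.1 and 127 CPM in basal replicates 1 to 5 and 135, 113, 109.8, 123 and 125 CPM with DHPG. Emc2 RNA was 48.9, 25.7, 19.3 and 48.2 CPM in basal replicates 1 to 4 and 44.2, 20.6, 17.9, 45.0 and 37.9 CPM in DHPG replicates 1 to 5. Emc2 RNA was lower in replicates 2 and 3 than in the others in both treatments, and its RPFs were lowest there too, over a far narrower range. Its RNA range was 2.48 times, and 1.87 times with the GC trend removed, against 1.17 times in RPFs.

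**Figure D4:**
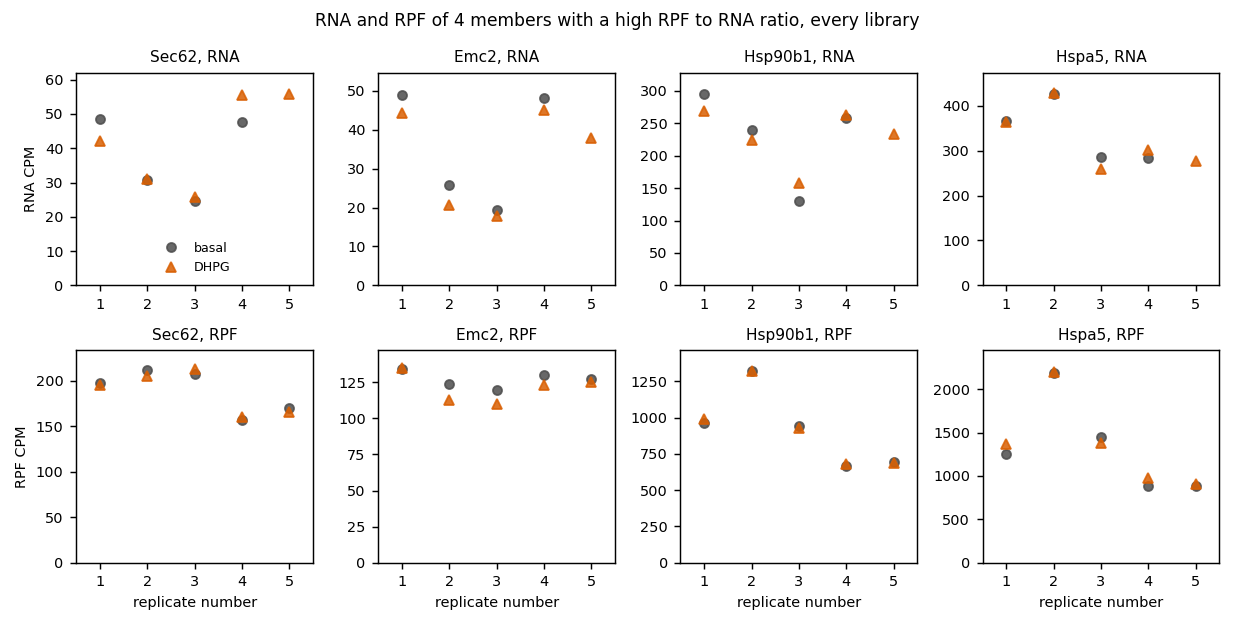
RNA (upper row) and RPF (lower row) CPM of Sec62, Emc2, Hsp90b1 and Hspa5 in each basal (grey circles) and DHPG (orange triangles) library, with axes starting at 0. Basal replicate 5 has no RNA library. RNA of Sec62 and Emc2 is low in replicates 2 and 3, where RPFs of Sec62 are high and those of Emc2 are only slightly lower, and Hspa5 is high in replicate 2 in both assays.

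DHPG for 5 min changed no member past the threshold. In RNA (adjusted p of 0.01 in edgeR with the replicate as a block) 0 of 50 members were called, and 1 of 12935 genes was (0.00773%). The DHPG library of replicate 5 has no basal RNA partner, so it adds nothing to this difference. At an unadjusted p of 0.05 there were 2 members against 8.02% of all genes. DESeq2 with the block called 0 members as well (1 at an unadjusted p of 0.05). ComBat followed by DESeq2 called 0 of the 7 members to which it gave an adjusted p, with 4 of 50 at an unadjusted p of 0.05. Of the members 19 had an estimate above 0, against 52.1% of all genes, with a median of -0.016 on the log2 scale, and the values of DHPG and basal libraries overlapped for all 50, as they did for all but 0.518% of genes. Without replicate 3, 28 members lay above 0 and the median was 0.0045. The 1 gene called in RNA was a thalamus marker. Of the 3 thalamus markers 3 had an RNA estimate above 0, with a median of 0.61, and their summed RNA CPM was 64.6 to 88.0 in basal and 79.3 to 106 in DHPG libraries. RNA estimates were also above 0 for 5 of 5 oligodendrocyte, 5 of 5 hippocampal excitatory neuron and 4 of 5 astrocyte markers, and for the 1 choroid plexus marker tested. In the other lists they were above 0 for 2 of 4 microglia, 1 of 3 inhibitory neuron and 1 of 3 endothelium markers. The part of these cell types in the members' values was not tested.
In RPFs (adjusted p of 0.05) 0 of 50 members were called, and 29 of 13208 genes were (0.22%). At an unadjusted p of 0.05 there were 8 members against 10.8% of all genes. DESeq2 with the block called 0 of the 9 members to which it gave an adjusted p, with 2 of 50 at an unadjusted p of 0.05, and ComBat followed by DESeq2 called 0 of 20, with 3 of 50. The RPFs of 46 members had an estimate above 0, against 51.4% of all genes and 50.8% of genes at or above the median RPF level. The median was 0.041 on the log2 scale against 0.0031 for all genes, and no member exceeded 0.11. In 4 members (Sec61a2, Ssr2, Spcs1 and Canx) the DHPG value was the higher in 5 of 5 pairs and in 0 members the lower, against 5.15% and 4.72% of all genes, and the groups overlapped for all 50 members, while 0.394% of genes did not overlap.

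**Figure D5:**
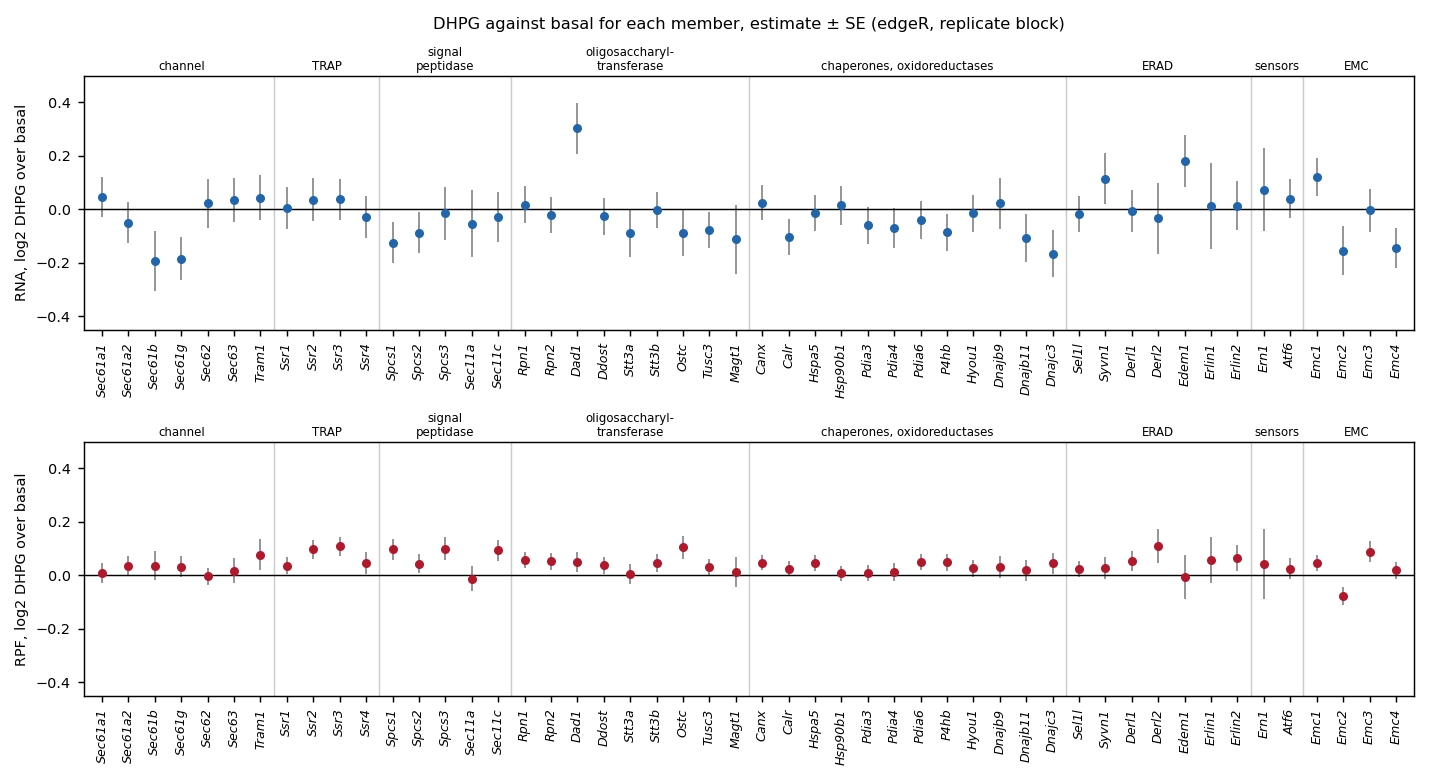
DHPG against basal for each member by role, as the edgeR log2 estimate ± SE with the replicate as a block, for RNA (upper) and RPF (lower). No member passed the threshold. Of the RPF estimates 46 of 50 lie above 0, none above 0.11, and of the RNA estimates 19 of 50 lie above 0.

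By pair of libraries, 39, 40, 29, 34 and 27 of the 50 members had more RPF CPM with DHPG than at basal in replicates 1 to 5, and the median member moved by 0.078, 0.061, 0.015, 0.044 and 0.0068 on the log2 scale. Of all genes tested, 48.6, 49.6, 49.8, 53.8 and 50.5% were higher in these pairs, with medians of -0.0070, -0.0011, -0.00042, 0.014 and 0.0019. The shift of the members was thus largest in replicate 1 and smallest in replicate 5. Members share each library, so these 50 values are not separate replicates. Markers of other cell types were read in the same RPF libraries. Of 3 thalamus markers 3 were called higher with DHPG, and of 5 oligodendrocyte markers 4 had an estimate above 0 and 1 was called. None was called among the other lists, where the estimate was above 0 for 5 of 5 astrocyte, 4 of 4 microglia, 3 of 5 hippocampal excitatory neuron, 1 of 3 inhibitory neuron and 0 of 3 endothelium markers. Of 3 choroid plexus markers 1 was tested, and Folr1 had a count of 0 in at least 1 RPF library. Their part in the members' values was not tested. The summed RPF CPM of the thalamus markers was 97.6 to 117 in basal and 102 to 152 in DHPG libraries, against 4533 to 5426 in basal libraries for the 5 markers of hippocampal excitatory neurons, which were present in every library. That of the oligodendrocyte markers was 3901 to 8246 in basal and 4500.0 to 9282 in DHPG libraries.

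The members with the smallest p in RPFs were Ssr3 and Ssr2 of TRAP and Spcs1 of signal peptidase. Ssr3 RPFs were 154, 181, 174, 139 and 145 CPM in basal replicates 1 to 5 and 183, 198, 189, 137 and 152 CPM with DHPG. Ssr2 RPFs were 114, 111, 107, 92.0 and 103 CPM in basal replicates 1 to 5 and 125, 124, 111, 94.9 and 112 CPM with DHPG. Spcs1 RPFs were 112, 131, 111, 107 and 109.7 CPM in basal replicates 1 to 5 and 138, 131, 126, 109.7 and 110.3 CPM with DHPG. For Ssr2 and Spcs1 the DHPG value was the higher in 5 of 5 pairs, in replicate 2 of Spcs1 by less than 1 CPM, and for Ssr3 in 4 of 5, but the groups overlapped for all 3.
The differences were 0.11 ± 0.035 for Ssr3 (log2 ± SE, adjusted p = 0.199, edgeR), 0.10 ± 0.036 for Ssr2 (adjusted p = 0.277, edgeR) and 0.10 ± 0.038 for Spcs1 (adjusted p = 0.335, edgeR). Without replicate 1 that of Spcs1 was 0.060. All 4 TRAP genes and 4 of 5 signal peptidase genes had an estimate above 0, with medians of 0.074 and 0.094. The 12 chaperones were all above 0, at 0.0082 to 0.05, with 0.048 ± 0.031 for Hspa5 and 0.0082 ± 0.028 for Hsp90b1, and the 9 OST genes too, at 0.0062 to 0.10.
Below 0 were Emc2 at -0.077 ± 0.035 (adjusted p = 0.418, edgeR), lower with DHPG in 4 of 5 pairs, Sec11a at -0.011 ± 0.048, Sec62 at -0.0037 ± 0.032 and Edem1 at -0.0042 ± 0.082. Sec11a RPFs were 39.4, 48.0, 45.1, 37.0 and 37.8 CPM in basal replicates 1 to 5 and 44.0, 46.3, 46.7, 34.1 and 35.8 CPM with DHPG. For Sec11a the pairs went both ways.

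In RNA the smallest p belonged to Dad1, a small OST subunit whose name records its discovery as a defender against cell death. Dad1 RNA was 29.5, 36.0, 45.8 and 32.3 CPM in basal replicates 1 to 4 and 38.8, 54.9, 45.0, 39.1 and 42.0 CPM in DHPG replicates 1 to 5. Dad1 RPFs were 105, 101, 98.5, 94.7 and 91.8 CPM in basal replicates 1 to 5 and 109.8, 104, 98.9, 91.7 and 105 CPM with DHPG. Its RNA was higher with DHPG in 3 of 4 pairs and the difference was 0.30 ± 0.10 (adjusted p = 0.536, edgeR), while that of its RPFs was 0.051 ± 0.038.
Edem1 at 0.18 ± 0.10 and Emc1 at 0.12 ± 0.072 were next among those above 0. Emc1 RNA was 231, 271, 298 and 180.4 CPM in basal replicates 1 to 4 and 269, 289, 279, 218 and 226 CPM in DHPG replicates 1 to 5. Emc1 RPFs were 292, 304, 307, 237 and 259 CPM in basal replicates 1 to 5 and 313, 323, 299, 248 and 265 CPM with DHPG. The pairs of Emc1 RNA went up in 3 of 4, and the groups overlapped.
Sec61g RNA was 53.8, 68.5, 82.5 and 54.4 CPM in basal replicates 1 to 4 and 47.4, 60.9, 78.7, 43.2 and 58.6 CPM in DHPG replicates 1 to 5. Sec61g RPFs were 75.1, 72.5, 67.2, 71.7 and 65.5 CPM in basal replicates 1 to 5 and 78.3, 71.4, 73.6, 68.0 and 68.0 CPM with DHPG. Sec61g RNA was lower with DHPG in 4 of 4 pairs, at -0.18 ± 0.08 (adjusted p = 0.578, edgeR), and its RPFs were higher in 3 of 5.
Emc4 RNA was 93.3, 90.9, 99.6 and 82.8 CPM in basal replicates 1 to 4 and 78.9, 82.3, 98.1, 73.2 and 97.2 CPM in DHPG replicates 1 to 5. Emc4 RPFs were 189, 191, 195, 168 and 185 CPM in basal replicates 1 to 5 and 201, 195, 188, 181 and 179 CPM with DHPG. Emc4 RNA was likewise lower in 4 of 4 pairs, at -0.15 ± 0.075 (adjusted p = 0.639, edgeR). In all, 6 members were lower in every RNA pair and 0 higher, against 6.97% and 8.67% of all genes.
Dnajc3 RNA was 51.4, 51.0, 31.9 and 60.8 CPM in basal replicates 1 to 4 and 45.2, 44.0, 34.6, 48.5 and 48.7 CPM in DHPG replicates 1 to 5. Dnajc3 RPFs were 74.5, 103, 88.6, 70.1 and 73.5 CPM in basal replicates 1 to 5 and 85.6, 113, 86.2, 72.3 and 70.5 CPM with DHPG. Dnajc3, a BiP cofactor (p58IPK), had an RNA difference of -0.17 ± 0.087 and pairs in both directions. The remaining members had RNA estimates between -0.19 (Sec61b) and 0.11 (Syvn1), and Hspa5 was at -0.013 ± 0.067.

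The ratio of RPF to RNA was tested as the interaction of assay and treatment over 19 libraries. No member was called, nor any of 13320 genes (0%), and at an unadjusted p of 0.05 there were 6 members against 6.54% of all genes in edgeR. limma on the log2 differences called 0 members too. The estimate was above 0 for 40 of 50 members, against 49.4% of all genes, with a median of 0.069. The smallest p were those of Spcs1, at 0.23 ± 0.082 (adjusted p = 0.706, edgeR), and Sec61g, at 0.21 ± 0.081 (adjusted p = 0.706, edgeR). Spcs1 RNA was 74.2, 77.4, 84.9 and 84.6 CPM in basal replicates 1 to 4 and 73.1, 76.1, 74.4, 71.1 and 92.2 CPM in DHPG replicates 1 to 5. Ssr2 RNA was 47.6, 59.1, 62.9 and 47.8 CPM in basal replicates 1 to 4 and 52.7, 63.4, 60.3, 46.6 and 56.2 CPM in DHPG replicates 1 to 5. Ssr3 RNA was 81.6, 77.0, 66.4 and 85.0 CPM in basal replicates 1 to 4 and 82.1, 84.0, 72.2, 80.0 and 94.2 CPM in DHPG replicates 1 to 5. RNA of Spcs1 was lower with DHPG in 4 of 4 pairs and its RPFs higher in 5 of 5, while the RNA of Ssr2 was higher in 2 of 4 pairs and that of Ssr3 in 3 of 4.

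Other genes of the same pathway were taken from a list of 79 names, of which 69 were in the tables. In RNA 66 of them were tested and 0 were called at an adjusted p of 0.01 (3 at an unadjusted p of 0.05, edgeR), and 29 had an estimate above 0. In RPFs 67 were tested and 0 called (8 at an unadjusted p of 0.05, edgeR), and 48 had an estimate above 0, with a median of 0.037. The smallest adjusted p was that of the EMC subunit Emc6, at 0.21 ± 0.06 (adjusted p = 0.136, edgeR). The 7 tested genes of the signal recognition particle and its receptor had 3 above 0 and 4 below.
In the basal ratio, 49 of 67 passed, 32 above the typical gene and 17 below, with a median of 0.24, where 70.3% of all genes passed, 35% above and 35.2% below. Among those above was Ost4, at 9.83 ± 0.53, whose RNA did not pass the filter on low counts, so its ratio rests on very little RNA. Of the 7 genes of stress signalling 5 passed below, 1 passed above (Mbtps2 at 1.02 ± 0.14) and 1 did not pass. Those below included the transcription factors Atf4 at -2.59 ± 0.14 and Ddit3 at -1.36 ± 0.16 (adjusted p = 7.84e-05, edgeR), and the kinase Eif2ak3 (PERK) at -0.66 ± 0.13. These lay on the side of Ern1 among the members, while the other sensor, Atf6, did not pass, at -0.07.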

How the data were processed

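RNA-seq and ribosome profiling libraries were made from the same lysates of hippocampal slices. Per the study's methods, adapters were removed with cutadapt, rRNA and tRNA reads were removed with Bowtie2, reads were aligned to mm10 with TopHat2, and duplicates were removed by molecular identifier. The authors deposited RSEM expected counts, already rounded to whole numbers, on coding sequence without 30 nt at each end for RPFs and on whole transcripts for RNA. The tables held 12 further columns that match no sample described here and were not used. Column names were matched to the GEO titles.

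The members and lists were chosen with earlier results of these data known. Genes were filtered with filterByExpr, scaled by TMM and tested with edgeR 4.0.16 (R 4.3.3) quasi-likelihood models with Benjamini-Hochberg adjustment over all genes. DHPG was compared with basal within RNA (threshold 0.01) and RPF (0.05), and the RPF to RNA ratio was tested as an interaction. The basal ratio compared RPF with RNA over replicates 1 to 4. The replicate number was a block in every fit, and in the interaction it was a block within each assay. The interaction fit thus does not pair the RNA and RPF libraries of one lysate, whereas limma on the log2 differences does. Same-numbered basal and DHPG libraries deviated together (correlations 0.26 to 0.74 in all pairs), and the replicate explained 98.1% of the first principal component in RNA and 98.7% in RPF. With this block, p-values weigh how far the difference between treatments or assays varied across pools of 6 mice. The spread between pools in the level itself is taken out. Lengths and GC content came from GENCODE M21 for the longest coding isoform, and motifs from RefSeq promoters (GRCm38.p6). Alternatives used DESeq2 1.42.0, limma 3.58.1 and ComBat of sva 3.50.0. In simulated data, 200 genes changed by 0.5 on the log2 scale were recovered at 61.5% in RNA, 87% in RPF and 64% in the interaction, and genes changed by 1.5 at 97% in the basal ratio. Unchanged genes made up 1 of 124 calls in RNA, 10 of 184 in RPF, 8 of 136 in the interaction and 11 of 205 in the basal ratio. Changes as small as the member estimates in RPFs, at most 0.11, were not simulated, so recovery at that size is not known.

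Values in every library are given for 34 members. These are the 3 with the smallest p in each direction in RNA and in RPF, the 2 with the smallest p in the ratio test, the 3 highest and 3 lowest by basal ratio, the highest and lowest level in each role, the paralog pairs, 4 stress-induced chaperones and the 2 sensors. Counting error is smaller in the deeper libraries, mostly RPF.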

Additional observations from a re-analysis of the deposited data

Results flagged for a closer look

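Of 136 groups of 4 or 5 libraries of the named members, 3 had a library far from the others by Dixon's test, where chance gives about 6.8. Spcs1 RNA was 92.2 CPM in DHPG replicate 5 and 71.1 to 76.1 CPM in the other DHPG libraries. Spcs1 RPFs were 131 CPM in basal replicate 2 and 107 to 112 CPM in the other basal libraries. Derl2 RNA was 30.5 CPM in DHPG replicate 2 and 16.2 to 20.2 CPM in the other DHPG libraries.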

How the results depend on the processing

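No member was called for DHPG in RNA, RPF or their ratio under any alternative, though DESeq2 gave no adjusted p to 41 members in RPFs, nor after ComBat to 43 in RNA and 30 in RPFs, while 34 to 46 of 50 passed in the basal ratio. The number of all genes called moved more. In RNA (1 gene) it was 7 with no filter, 0 with at least 10 counts in every library, 0 in DESeq2, 12 after ComBat and 0 to 22 with a replicate left out (22 without replicate 2). In RPFs (29 genes) it was 96 with no filter, 109 after ComBat, 8 at a threshold of 0.01 and 3 to 71 with a replicate left out (10, 3, 71 and 50 with 1, 2, 3 and 5 left out in turn). In the ratio (0 genes) it was 6 with no filter and 0 to 8 with a replicate left out (8 without replicate 2). Without the replicate block, 0 genes were called in RNA and 0 in RPFs, and 40 members passed in the basal ratio. The cause was not tested. Members with an estimate above 0 numbered 43 to 48 in RPFs and 16 to 28 in RNA with a replicate left out.

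The median basal ratio of members (0.71) was 0.84 in DHPG libraries, 0.52 with the GC trend removed, 1.03 per length and 1.05 per length of the median isoform. The GC correction was added after seeing the data. In the basal ratio it also removes any part of the difference between RPF and RNA that goes with GC content. It turned Sec61a2 to -0.035, Stt3a to -0.39 and Derl2 to -0.45, and Sec62 RPFs with DHPG to 0.012. Per length, Tusc3 was at -0.085, Hyou1 at -0.12 and Atf6 at 0.83. Estimates near 0 changed sign with a replicate left out. In RNA, Hspa5 ranged from -0.050 to 0.030 and Hsp90b1 from -0.071 to 0.061, the sign turning without replicate 3, and Hsp90b1 was at -0.0088 without the replicate block. In RPFs, Hsp90b1 ranged from -0.00045 (without replicate 1) to 0.014, Sec62 from -0.018 to 0.0067 (without replicate 2, and 0.0044 without 5) and Sec11a from -0.037 to 0.0075 (without replicate 4, and 0.00095 and 0.0038 without 2 and 5). The basal ratio of Atf6 ranged from -0.15 to 0.039 (without replicate 4). Depth limits Ern1 and Erlin1 most.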
